A study of Mus musculus with 6 samples.

Results

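The genes described here are the Kcnip family, the Kv4 potassium channels that Kcnip proteins bind, and the Dpp subunits of the same channel complex. They are Kcnip1 to Kcnip4, Kcnd1 to Kcnd3, Dpp6 and Dpp10, 9 of the 18193 genes named on the array. Their members are the 27 probe sets, of 45037 tested, that the platform annotation assigns to exactly 1 of these 9 symbols. The hippocampus of 3 adult male mice of the transgenic line L26, homozygous for daDREAM, was set against that of 3 wild type littermates, all on a mixed C57B6xCBA background and without a stimulus. Each mouse gave 1 Affymetrix Mouse Genome 430 2.0 array, on which a probe set is a group of short probes that reads 1 transcript region, and the values are log2 expression. L26 is a single line, so an effect of the transgene and an effect of its insertion site cannot be told apart, and the promoter that drives the transgene is not given in the sources used here.

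Kv4 channels open below the firing threshold and inactivate fast, and they carry most of the A-type potassium current that damps excitation in hippocampal dendrites. Kcnip proteins are small EF-hand calcium sensors that bind the inner end of the channel subunit, bring more channels to the surface and slow their inactivation. Dpp6 and Dpp10 are single-pass membrane proteins that have lost peptidase activity and speed the gating of the channel. The product of Kcnip3 is also the transcriptional repressor DREAM, which binds the downstream regulatory element in DNA and lets go of it when calcium rises, and daDREAM is a dominant active form of it.

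In L26 hippocampus, transcripts of 2 of the 9 genes fell on every probe set. Dpp10 was lower by 1.67-fold and 1.36-fold on its 2 probe sets, and Kcnip4 was lower by 1.35-fold to 1.42-fold on its 3. Kcnip3 fell on 1 of 2 probe sets, and Dpp6 rose on 1 of 2. No probe set of the other 5 genes, Kcnip1, Kcnip2 and the 3 Kv4 channel genes, passed the threshold, an adjusted p of 0.05 in limma over all probe sets. In all 7 of the 27 probe sets (25.9%) passed, 6 lower and 1 higher in L26, where 3.92% of all probe sets passed (1.94% lower, 1.98% higher). Probe sets of a gene share its transcript and are not independent of each other. An unadjusted p below 0.05 was found for 9 of the 27 and for 18.1% of all probe sets. Without L26 replicate 3 the count past the threshold was 4. Counted by genes, 2 of the 9 fell on their brightest probe set (Dpp10 and Kcnip4), where 2.57% of all genes fell and 5.19% passed in either direction. On the mean of their probe sets 3 fell (Kcnip3 as well), where 5.3% of all genes passed in either direction.

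**Figure D1:**
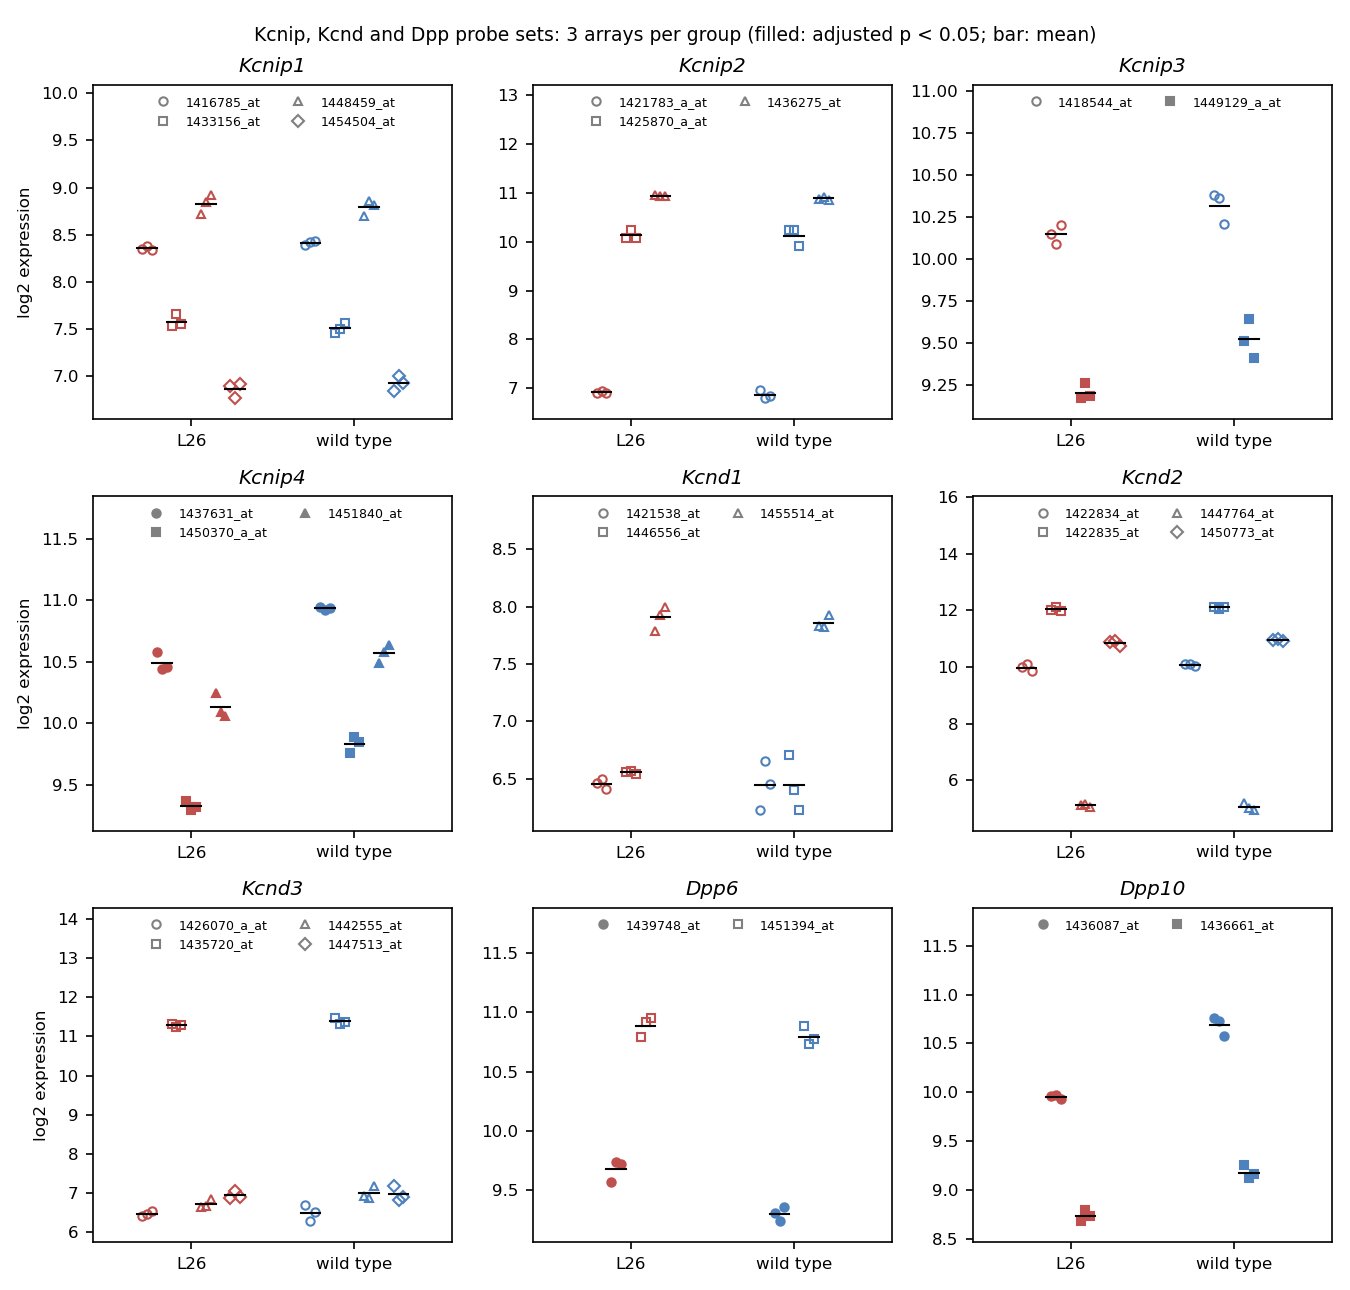
Log2 expression of each probe set of the 9 genes, with L26 left of wild type in each panel; points are single arrays (3 per group), bars are means, and filled points mark probe sets with an adjusted p below 0.05. All 3 Kcnip4 and both Dpp10 probe sets lie lower in L26 with no overlap, while the Kcnd panels show groups at similar levels; levels of different probe sets cannot be compared with each other.

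Means were lower in L26 for 16 of the 27 probe sets and higher for 11, and their median difference was -0.06 on the log2 scale, against 0.01 over all probe sets. In 12 of the 27 the 3 L26 values lay wholly to one side of the 3 wild type values, 10 below and 2 above. Over all probe sets 21.9% had such groups, 9.32% with L26 below and 12.5% with L26 above. All 7 probe sets past the threshold are among these 12. The other 5 are a probe set each of Kcnip1, Kcnip2, Kcnip3, Kcnd2 and Kcnd3, and their differences were between -0.28 and 0.05.

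**Figure D2:**
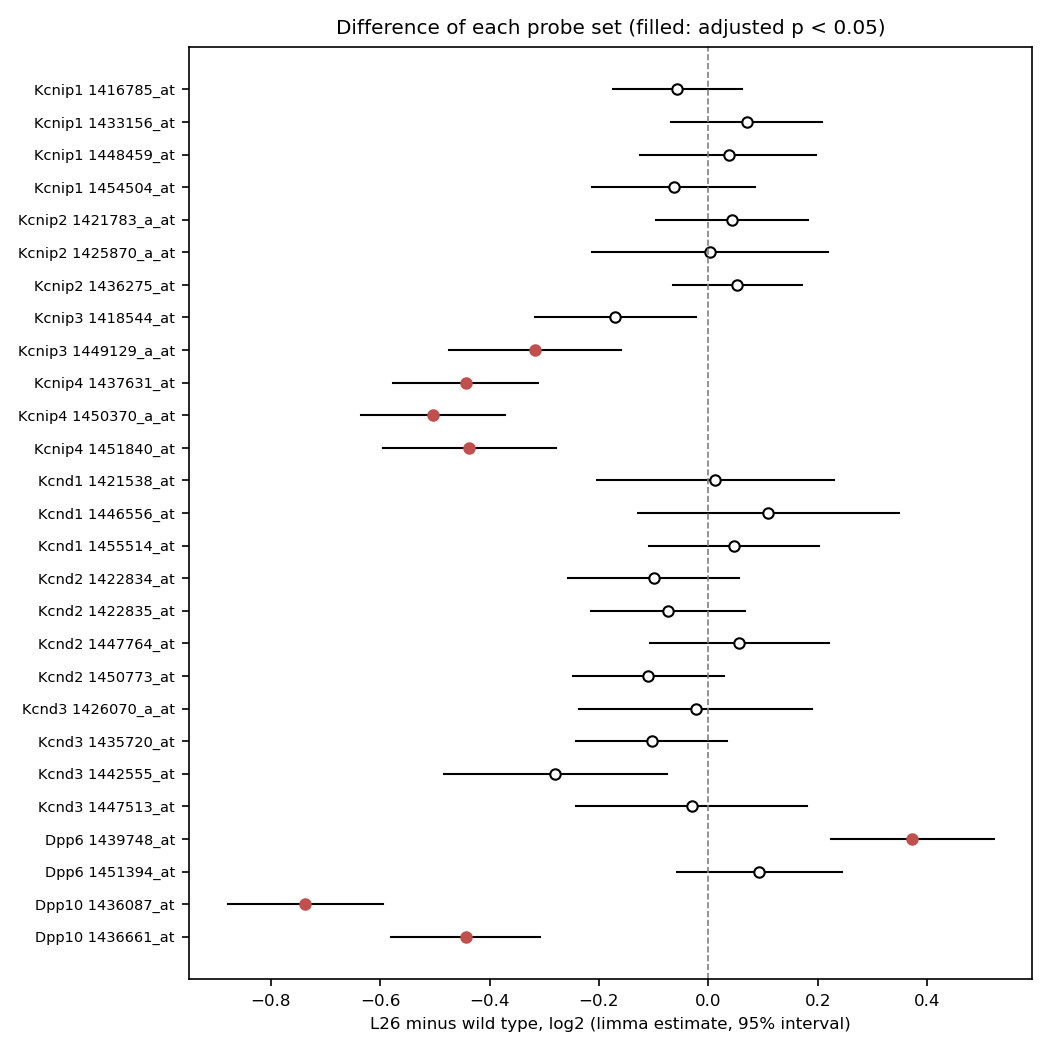
Difference of each probe set, L26 minus wild type on the log2 scale, with its 95% interval from limma; filled points passed an adjusted p of 0.05. The Kcnip4 and Dpp10 intervals lie wholly below 0 and those of Kcnip1, Kcnip2, Kcnd1 and Kcnd2 all include 0.

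Kcnip3, the gene that daDREAM was made from, is read by 2 probe sets that the platform annotation traces to the same sequence record. Probe set 1449129_a_at had 9.17, 9.26 and 9.18 in L26, against 9.51, 9.64 and 9.41 in wild type. All L26 values lay below all wild type values, and the difference was -0.32 (SE 0.07, adjusted p = 0.0393, limma). This call was lost when any 1 array other than wild type replicate 3 was left out, with differences from -0.37 to -0.26 over the 6 fits that each leave out 1 array. Probe set 1418544_at had 10.15, 10.09 and 10.20 in L26, against 10.38, 10.36 and 10.21 in wild type. Here the groups were separated by 0.01 alone, since wild type replicate 3 lay beside L26 replicate 3, and the difference of -0.17 (SE 0.07) did not pass (adjusted p = 0.208, limma; 95% interval -0.32 to -0.02). The within-array gap between these probe sets was 0.83 to 1.02 in L26 and 0.72 to 0.87 in wild type, a shift of 0.15 with overlap (exact permutation p = 0.2, two-sided). With 3 arrays against 3 that exact permutation test cannot go below p = 0.1, so it does not show whether the probe sets moved equally. Averaged over both probe sets, Kcnip3 had 9.68 in L26 and 9.92 in wild type, and passed with an adjusted p of 0.0431 over genes (limma). No excess of Kcnip3 signal was seen in L26. Whether either probe set reads the transgene's message is not known here, so these values do not check the labels.

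Kcnip4 encodes a family member whose splice forms differ in how they change Kv4 inactivation. All of its 3 probe sets fell. Probe set 1450370_a_at had 9.37, 9.30 and 9.32 in L26, against 9.76, 9.89 and 9.85 in wild type, a difference of -0.50 (SE 0.06, adjusted p = 0.00175, limma). Probe set 1437631_at had 10.58, 10.44 and 10.46 in L26, against 10.95, 10.92 and 10.94 in wild type, a difference of -0.44 (SE 0.06, adjusted p = 0.0036, limma). Every L26 array lay below every wild type array on both, by at least 0.34. Probe set 1451840_at had 10.25, 10.09 and 10.06 in L26, against 10.49, 10.58 and 10.64 in wild type, a difference of -0.44 (SE 0.07, adjusted p = 0.00974, limma). Without L26 replicate 3 this last probe set just missed the threshold (adjusted p = 0.0533), while the other 2 passed in every alternative tried. The within-array gap of 1437631_at to 1450370_a_at ran from 1.14 to 1.21 in L26 and from 1.03 to 1.19 in wild type, a shift of 0.06, and that to 1451840_at from 0.33 to 0.40 in L26 and from 0.30 to 0.46 in wild type, a shift of -0.01. In a tissue extract, fewer cells that express a gene and less of its RNA per cell cannot be told apart.

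Promoter windows of Kcnip4 and Dpp10 are shown because these are the genes that fell on every probe set. The core of the element that DREAM binds, GTCA, is short enough to be looked for directly. The windows are from RefSeq on build GRCm38.p6 and run from 250 bases before to 50 bases after an annotated start, in lower case, 5′ to 3′ on the gene's strand, with GTCA or its complement on the other strand, TGAC, in capitals. RefSeq gives Kcnip4 2 such windows and Dpp10 1. On the minus strand the genes themselves begin at 49525122 on chromosome 5 (Kcnip4) and 124845815 on chromosome 1 (Dpp10). Each window therefore marks a start inside its gene, and the region at the outermost start is not shown.
Kcnip4 window 1, chr5:49285610-49285909, minus strand: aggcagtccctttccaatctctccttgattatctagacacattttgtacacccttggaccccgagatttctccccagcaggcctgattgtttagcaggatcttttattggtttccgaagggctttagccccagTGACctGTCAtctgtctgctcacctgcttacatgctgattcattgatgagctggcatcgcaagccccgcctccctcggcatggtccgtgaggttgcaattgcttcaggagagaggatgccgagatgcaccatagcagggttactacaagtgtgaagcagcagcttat
Kcnip4 window 2, chr5:48599633-48599932, minus strand: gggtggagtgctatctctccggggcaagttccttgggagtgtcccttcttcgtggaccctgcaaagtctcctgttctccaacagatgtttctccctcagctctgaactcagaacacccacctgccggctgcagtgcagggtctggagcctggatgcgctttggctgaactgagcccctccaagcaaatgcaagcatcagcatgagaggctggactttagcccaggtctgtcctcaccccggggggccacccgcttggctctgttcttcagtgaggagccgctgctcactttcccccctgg
Dpp10, chr1:124045510-124045809, minus strand: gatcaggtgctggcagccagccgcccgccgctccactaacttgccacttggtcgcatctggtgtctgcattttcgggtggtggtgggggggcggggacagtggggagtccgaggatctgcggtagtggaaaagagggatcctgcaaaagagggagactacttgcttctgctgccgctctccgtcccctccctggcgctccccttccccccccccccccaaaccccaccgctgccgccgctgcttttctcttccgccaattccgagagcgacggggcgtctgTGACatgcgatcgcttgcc
The first Kcnip4 window holds a TGAC at -117 and a GTCA at -111 from the start, separated by a pair of bases, and the second holds none. The Dpp10 window holds a single TGAC, at 32 bases after the start. In the RefSeq set, 85.2% of 32851 windows hold at least 1 match on either strand, with a median of 2, so a match in these windows is what most promoters show. Among the 15 windows of 8 of the 9 genes 12 hold a match, those of Dpp6, which rose on 1 probe set, included. A match is not a site of binding, and a window without one says only that these letters are not in it.

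Kcnip1 and Kcnip2, the remaining Kcnip genes, showed no probe set past the threshold in limma, and none of their 7 probe sets had an unadjusted p below 0.05. Kcnip1, which is known from interneurons as well as principal cells, has 4 probe sets with differences between -0.06 and 0.07 (adjusted p from 0.614 to 0.847). Its brightest probe set, 1448459_at, had 8.72, 8.85 and 8.92 in L26, against 8.70, 8.86 and 8.82 in wild type, and the groups overlapped (95% interval of the difference -0.12 to 0.20). On 1416785_at all L26 values, 8.35, 8.38 and 8.34, lay below those of wild type, 8.39, 8.42 and 8.43, but by only 0.06 on average (adjusted p = 0.634, limma). Kcnip2, a strong modulator of Kv4 current in heart and brain, has 3 probe sets with differences between 0.003 and 0.05. Its brightest, 1436275_at, had 10.95, 10.93 and 10.94 in L26, against 10.88, 10.92 and 10.86 in wild type. These groups were apart by 0.01 at the nearest arrays, and the 95% interval of the difference was -0.06 to 0.17 (adjusted p = 0.659, limma). For both genes the 95% intervals of every probe set lay within -0.21 and 0.22, which leaves out measured falls of the size seen for Kcnip4. Kcnip1 1454504_at (6.86 in L26, 6.93 in wild type) and Kcnip2 1421783_a_at (6.92 and 6.87) lay below the median of all values (7.29). At such levels the processing can shrink differences, so their intervals do not bound the change in the transcript.

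The Kv4 channel genes themselves did not pass the threshold in limma on any of their 11 probe sets, of which 1, on Kcnd3, had an unadjusted p below 0.05. Kcnd2 encodes Kv4.2, the main A-type subunit of pyramidal cell dendrites. On its brightest probe set, 1422835_at, it had 12, 12.13 and 11.97 in L26, against 12.13, 12.06 and 12.13 in wild type, and the groups overlapped (difference -0.07, SE 0.06, adjusted p = 0.599, limma; 95% interval -0.21 to 0.07). The Kcnd2 probe sets 1422834_at and 1450773_at had differences of -0.10 and -0.11 (SE 0.07 and 0.06, adjusted p = 0.508 and 0.39), and on 1450773_at the L26 arrays, at 10.87, 10.91 and 10.75, lay below the wild type arrays, at 10.96, 10.98 and 10.92. The fourth, 1447764_at, averaged 5.11 in L26 and 5.06 in wild type, below the lower quartile of all values (5.95).

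Kcnd3 encodes Kv4.3, which in hippocampus is known from interneurons and some principal cells. Its brightest probe set, 1435720_at, had 11.32, 11.24 and 11.29 in L26, against 11.47, 11.31 and 11.38 in wild type, a difference of -0.10 (SE 0.06, adjusted p = 0.425, limma). The groups overlapped, and the 95% interval was -0.24 to 0.04. Probe set 1442555_at had 6.63, 6.65 and 6.83 in L26, against 6.91, 6.87 and 7.17 in wild type. That gap had no overlap and was the largest among the Kv4 genes, at -0.28 (SE 0.09), but it did not pass (adjusted p = 0.135, limma) and the level lies below the median of all values (7.29). The 2 other Kcnd3 probe sets had -0.02 and -0.03. Kcnd1 encodes Kv4.1, and its brightest probe set, 1455514_at, had 7.79, 7.93 and 8.0 in L26, against 7.83, 7.82 and 7.93 in wild type (difference 0.05, SE 0.07, adjusted p = 0.789, limma). On the other Kcnd1 probe sets, 1421538_at and 1446556_at, the wild type arrays spread from 6.23 to 6.65 and from 6.23 to 6.71, and the L26 arrays lay within those ranges.

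The Dpp subunit genes moved in opposite directions on the probe sets that passed. Dpp10 had the largest difference of the 9 genes. On 1436087_at it had 9.96, 9.97 and 9.93 in L26, against 10.76, 10.73 and 10.58 in wild type, a difference of -0.74 (SE 0.06, adjusted p = 0.000329, limma). The nearest arrays of the groups were 0.61 apart. On 1436661_at it had 8.68, 8.79 and 8.73 in L26, against 9.25, 9.12 and 9.16 in wild type, a difference of -0.44 (SE 0.06, adjusted p = 0.00423, limma). Both probe sets passed in every alternative tried. The fall was larger on 1436087_at by 0.29, and the within-array gaps of the groups did not overlap, from 1.18 to 1.28 in L26 and from 1.42 to 1.61 in wild type. The exact permutation test of that gap gave p = 0.1, the smallest that 3 arrays against 3 allow, and 0.72 after Benjamini-Hochberg adjustment over the 18 pairs of probe sets compared in these genes.

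Dpp6, which also helps to carry Kv4 channels into dendrites, was higher on 1439748_at, with 9.57, 9.74 and 9.72 in L26, against 9.31, 9.24 and 9.36 in wild type. No L26 array reached down to a wild type value, and the difference was 0.37 (SE 0.07, adjusted p = 0.0151, limma). This call was lost without L26 replicate 2 (adjusted p = 0.0662), L26 replicate 3 (0.0748) or wild type replicate 2 (0.0566). On the brighter 1451394_at Dpp6 had 10.79, 10.92 and 10.95 in L26, against 10.88, 10.73 and 10.77 in wild type, with overlap and a difference of 0.09 (SE 0.07, adjusted p = 0.523, limma). The gap between these probe sets differed by 0.28 between the groups without overlap (exact permutation p = 0.1, two-sided; 0.72 adjusted over the 18 pairs). Averaged over both probe sets the difference was 0.23 (SE 0.06), with an adjusted p of 0.0553 over genes (limma).

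Few other genes around the channel passed the threshold, although the array means of 2 of the 3 lists lay lower in L26 without overlap. The gap of the first list came mainly from 1 gene, Kcne2. Of 13 measured genes for proteins that bind Kv4 channels, Kcnip proteins or their partners, 1 fell, 1 rose and 11 did not pass when each gene was represented by its brightest probe set, where 2.57% of all genes fell and 2.63% rose. Their median difference was -0.04, against 0.01 over all genes and -0.07 over the 9 genes themselves. The mean level of this list ran from 8.56 to 8.58 in L26 and from 8.69 to 8.78 in wild type, a mean difference of -0.17 (-0.14 for the 9 genes). Kcne2, an accessory subunit that in brain is abundant in choroid plexus, had 5.51, 5.39 and 5.39 in L26, against 6.74, 7.28 and 7.47 in wild type. All L26 values lay below the lower quartile of all values, and the difference was -1.73 (SE 0.15, adjusted p = 0.00058 over genes, limma). Kcne2 weighed most in the mean difference of this list, whose median was -0.04. Flna, the gene of an actin cross-linker that anchors Kv4.2, had 8.77, 8.79 and 8.84 in L26, against 8.56, 8.48 and 8.64 in wild type (difference 0.24, SE 0.06). Its adjusted p was 0.0497 over genes and 0.0659 over probe sets, on either side of the threshold. Of 8 other Kv alpha subunit genes 1 fell, 0 rose and 7 did not pass, all 8 had a negative difference, and the median was -0.10. Their mean level ran from 9.89 to 9.95 in L26 and from 10.01 to 10.09 in wild type, a mean difference of -0.12. Kcnc4, which encodes another fast-inactivating channel, Kv3.4, had 9.65, 9.69 and 9.76 in L26, against 10.07, 10.00 and 9.96 in wild type on 1425090_s_at (difference -0.31, SE 0.06, adjusted p = 0.0159 over genes, limma). That probe set is open to related transcripts, and the other Kcnc4 probe set had -0.04. The last list holds 6 other dipeptidyl peptidase genes. Dpp4, Dpp8, Dpp9 and Fap are relatives of Dpp6 and Dpp10, while Dpp3 and Dpp7 share the name but belong to other peptidase families. Of these 6 genes 0 passed in limma and 1 had an unadjusted p below 0.05, and their median was 0.10. Their mean level overlapped, from 8.38 to 8.64 in L26 and from 8.34 to 8.50 in wild type. Those with the smallest p were Dpp7, a lysosomal peptidase gene, at 0.24 (SE 0.06, adjusted p = 0.0578 over genes), and Dpp9, a cytosolic one, at 0.15 (SE 0.08, adjusted p = 0.306 over genes).

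**Figure D3:**
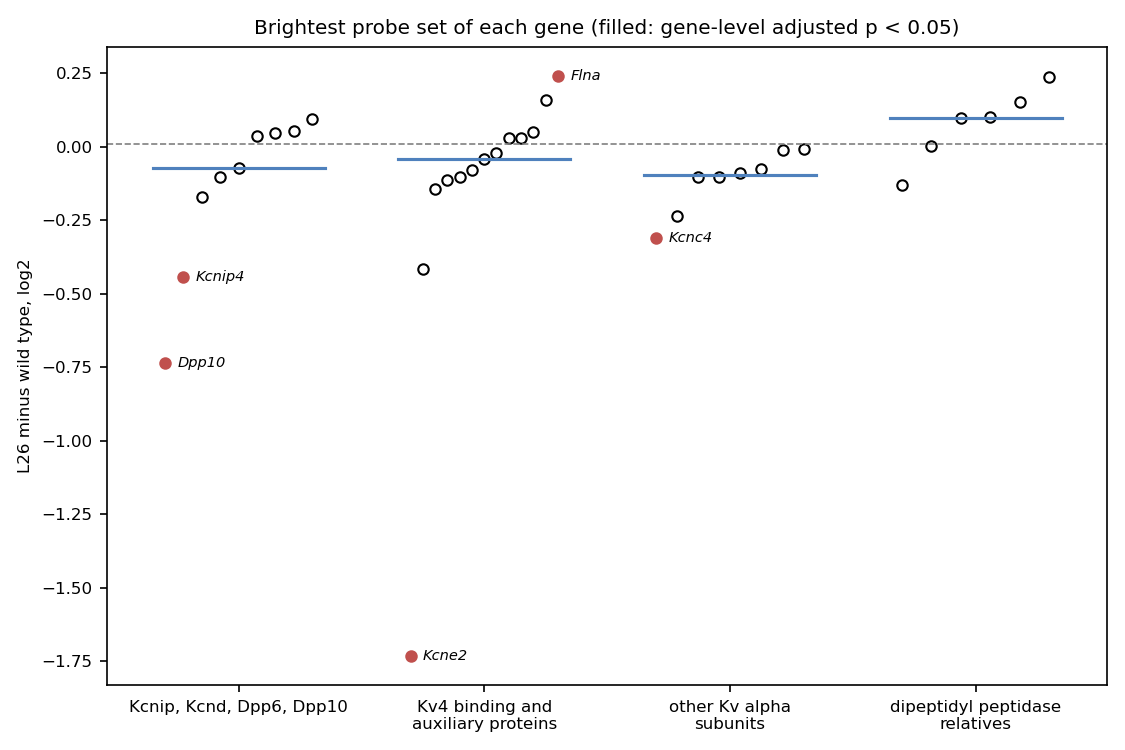
Difference of the brightest probe set of each gene, L26 minus wild type on the log2 scale, for the 9 genes and 3 related lists; filled and named points passed an adjusted p of 0.05 over genes, blue lines are list medians and the dashed line is the median of all genes (0.01). Dpp10 and Kcnip4 stand at -0.74 and -0.44, and Kcne2 at -1.73.

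The transcripts whose values over the 6 arrays lay nearest to those of a member, each centred on its own mean, were found by Euclidean distance among probe sets of other genes. Nearest to Dpp10 1436087_at were Syn2, a synaptic vesicle protein gene, at a distance of 0.09 and a difference of -0.71, Elmo1 (0.13 and -0.77) and Cbln4, a secreted synapse organiser gene (0.16 and -0.80). Nearest to Kcnip4 1437631_at were Rab3b, a vesicle GTPase gene (0.06 and -0.44), Nelfa, a transcription elongation factor gene (0.07 and -0.42), and Metrnl (0.09 and -0.39). For Kcnip3 1449129_a_at they were Igsf21, the relaxin receptor gene Rxfp1 and the calcium and calmodulin-dependent kinase gene Camk1, at distances of 0.064 to 0.075, and for 1418544_at Gtf3c1, Rab36 and Sdhc, at 0.03 to 0.05. Nearest to Dpp6 1451394_at were Armc6, Vars2 and Ccdc141, each at 0.04. Among so many probe sets some must lie near any member, and 6 arrays do not set such genes apart.

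On the same arrays, markers of several cell types moved too, counted here by the brightest probe set of each gene with p adjusted over genes. Markers listed as pan-neuronal averaged 12.81 to 12.85 over the L26 arrays and 12.80 to 12.86 over the wild type arrays. In limma 0 of these 6 passed, and 2 had an unadjusted p below 0.05. That list includes Neurod6, a gene of excitatory neurons and not of all neurons, with the largest difference, 0.24. Of the 6 genes 4 had a lower mean in L26, down to -0.12 for Rbfox3, and 2 a higher mean. Neurod6 offsets the lower means, so the overlap does not show that neuronal signal was equal. Interneuron markers averaged 10.64 to 10.69 in L26 and 10.69 to 10.73 in wild type. Of these 8 genes 5 were lower in mean and 1 passed the threshold, Pvalb (difference -0.30, adjusted p = 0.0491 over genes and 0.0594 over probe sets, limma). Mean levels of markers of hippocampal fields were 9.04 to 9.18 in L26 and 8.81 to 8.84 in wild type for dentate granule cells (3 of 5 rose), 10.16 to 10.17 in L26 and 9.97 to 10.02 in wild type for CA3 (3 of 4 rose, 1 fell) and 10.34 to 10.35 in L26 and 10.21 to 10.27 in wild type for CA1, where 1 of 4 rose (Fibcd1, 0.45), 2 had a lower mean and the median was 0.02. The CA3 marker that fell, Cpne4 (-0.30, adjusted p = 0.0365 over genes, limma), rose on a dimmer probe set (0.33, adjusted p = 0.018 over probe sets, limma). Cortical and subicular border markers ran from 9.46 to 9.56 in L26 and from 9.76 to 9.91 in wild type, and 4 of 7 fell. Oligodendrocyte markers ran from 11.99 to 12.23 in L26 and from 11.66 to 11.79 in wild type (6 of 7 rose), and vascular markers from 9.26 to 9.31 in L26 and from 8.66 to 8.76 in wild type (5 of 6 rose). Astrocyte markers averaged 11.16 to 11.19 in L26 and 11.08 to 11.18 in wild type (0 of 5 passed, 1 with an unadjusted p below 0.05). A dimmer Gfap probe set open to related transcripts, 1440142_s_at, fell, with 6.81, 6.76 and 6.70 in L26 against 8.39, 8.36 and 8.31 in wild type (difference -1.60, SE 0.06, adjusted p = 1.76e-06 over probe sets, limma), while the other 2 Gfap probe sets had -0.09 and 0.29 and did not pass. Microglial markers averaged 10.15 to 10.19 in L26 and 10.11 to 10.21 in wild type (1 rose and 1 fell of 5). Genes of other organs, used as a guide to low signal, averaged 6.21 to 6.28 in L26 and 6.22 to 6.35 in wild type, and normalized array values have no zero, so no marker could be absent in that sense. The part of these markers in the differences of Dpp10, Kcnip4, Kcnip3 and Dpp6 was not tested.

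**Figure D4:**
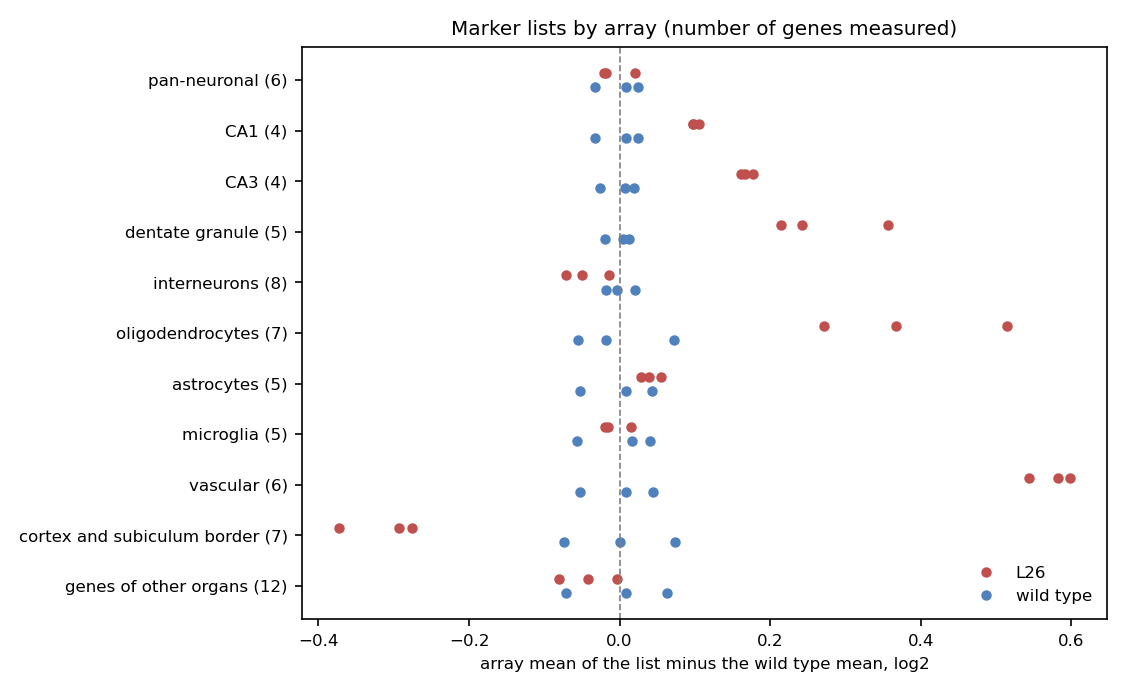
Mean log2 level of each marker list on each of the 6 arrays, minus the wild type mean of that list; the number of genes measured stands in parentheses. Vascular, oligodendrocyte, dentate granule, CA3 and CA1 lists lie to the right of every wild type array in all 3 L26 arrays. The cortical and subicular list lies to the left of every wild type array in all 3 L26 arrays. The remaining lists overlap between groups, among them the pan-neuronal list, which includes Neurod6, a gene of excitatory neurons.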

How the data were processed

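What the authors deposited are log2 values for each probe set on each array, which RMA and the affy package gave, per the submitters' processing notes, with versions not given in the sources used here. They carry 2 decimals, so groups that differ by 0.01 are at the limit of the file. RMA gives no detection calls and can shrink differences of dim transcripts. Array medians lay between 7.27 and 7.32, and correlations were 0.9971 to 0.9979 within groups and 0.9944 to 0.9958 between them. The number of arrays limits the precision, and the labels give no batch.

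Of 45101 probe sets 64 array controls were left out. The rest were fitted together with limma 3.58.1 in R 4.3.3 (L26 minus wild type, two-sided), and p-values were adjusted by Benjamini-Hochberg, across 45037 probe sets unless 18193 genes are named. Values after SE come from that fit. Genes were taken from GEO's platform annotation where a probe set had 1 symbol, and all 9 symbols stand in the RefSeq table of GRCm38.p6. The members, gene lists and tests were chosen with earlier results of these data known. Every member is named. Genes of the 3 related lists are named by a set rule (those past the threshold, or else the 2 with the smallest p), and the 3 nearest transcripts by distance. Marker genes were counted, and the few that are named were picked without such a rule. Genes of the lists without a probe set of their own were not analysed here. On simulated data of the same 45037 probe sets the fit recovered 70.1% of 67 changed by 0.5 and 100% of 67 changed by 1 on the log2 scale.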

Additional observations from a re-analysis of the deposited data

How the results depend on the processing

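The count of 7 probe sets past the threshold was 7 with repeated quantile normalization, centred arrays, an intensity trend with a robust prior, the dimmest 40% removed (23 of the 27 left), probe sets ending in _x_at or _s_at removed and a threshold of 0.1, and 4 to 7 with 1 array left out. It was 2 genes by the brightest probe set (Dpp10 and Kcnip4) and 3 genes by the mean of probe sets (Kcnip3 as well), where 9 genes and not 27 probe sets were counted. Over all probe sets 1764 passed, 892 higher and 872 lower in L26 (717 and 1149 with centred arrays), 3167 at a threshold of 0.1, and 810 to 1430 with 1 array left out, the lowest without L26 replicate 3 (810), L26 replicate 2 (968) and wild type replicate 2 (1064). With the replicate number as a block 7 and 1330 passed. Same-numbered arrays deviated from their group means with correlations of -0.04, -0.07 and 0.15, and not every array correlated best with its own number, so the numbers were not taken as pairs. The block changed no call of a member.

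Signs turned only where differences were small and did not pass: with 1 array left out, Kcnip1 1448459_at ran from -0.01 to 0.092, Kcnip2 1425870_a_at from -0.108 to 0.062, Kcnd1 1421538_at from -0.093 to 0.117, Kcnd3 1426070_a_at from -0.128 to 0.072 and Kcnd3 1447513_at from -0.102 to 0.073. Kcnd1 1421538_at was -0.011 after repeated quantile normalization and -0.017 with centred arrays, and Kcnip2 1425870_a_at was -0.027 with centred arrays. The cause was not tested. Of single values over the alternatives 324 stayed on their side of the threshold with their direction, and 9 lost the call, all with 1 array left out. Signal near the low end limits what can be read from Kcnd2 1447764_at and the dimmer Kcnd1 and Kcnd3 probe sets.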
